A study of Solanum lycopersicum with 9 samples.

Results

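A set of 120 tomato gene models was abundant in one control, CK2, and close to absent in the other control, CK1, and in WRKY-B-GFP (OE) plants. The members were chosen by their measured level. The mean over the CK2 libraries had to reach 100 FPKM, and the means in CK1 and in OE each had to stay under 1 FPKM. FPKM is the number of fragments corrected for transcript length and library size. The 120 gene models were 0.353% of the 33989 gene models measured, and they lay at 119 loci. They made up 9.35% of the 1284 gene models that reached 100 FPKM in CK2. Because those means chose the members, the contrasts of CK2 with CK1 and with OE are described here without a test.

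RNA-Seq of tomato (Solanum lycopersicum) was carried out in 9 libraries, 3 for each of CK1, CK2 and OE. The sample labels give CK1 as bud of the cultivar "monomaker", CK2 as bud of "Compound raceme", and OE as flower of "Compound raceme", all from greenhouse plants with no treatment. The study's methods instead describe Ailsa Craig, with axillary buds taken at the sixth node of 45-day-old wild-type and WRKY-B-GFP plants, and 10 plants pooled per replicate. They describe only 1 wild-type control, and a transgene driven by the 35S promoter, which is active in most plant tissues. CK2 and OE therefore share a labelled cultivar and differ in the transgene and in the labelled tissue, which cannot be told apart, while CK2 and CK1 share a labelled tissue and differ in cultivar. Whether OE1, OE30 and OE9 are separate transgenic lines was not stated. WRKY-B (Solyc02g071130.3), a gene of the WRKY family of plant transcription factors, was at 74.04, 93.51 and 205.7 FPKM in OE1, OE30 and OE9, and at 0.08 to 0.87 FPKM in the 6 control libraries.

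A bud holds a meristem, young leaves or floral organs and vascular tissue, and each of these cell types uses some genes that the others leave silent. In a bulk library the RNA of all these cells is mixed. A gene present in one library and absent from another can therefore differ in the cells sampled or in its RNA per cell, and these cannot be told apart here. Compound racemes are branched inflorescences, and axillary buds give rise to lateral branches. The deposited table gives IDs without names, and no ID matched any of the 41476 rows of the RefSeq gene table used here. The members are therefore given by ID, their functions were not analysed here, and the labelled tissues could not be checked against marker genes.

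Read totals are not known for these libraries, and FPKM summed to 743707 to 769380 in the controls and 615715 to 684351 in OE. CK1_3 stood apart from the other CK1 libraries in these gene models. The members summed to 12.48 and 14.15 FPKM in CK1_1 and CK1_2, and to 73.22 FPKM in CK1_3. Of the 120 members, 63 and 61 were listed at 0 in CK1_1 and CK1_2, against 8 in CK1_3. CK1_3 held the highest CK1 value in 102 members, while CK1_1 and CK1_2 each held it in 4. Over 6173 other gene models with a CK1 mean between 0.1 and 1 FPKM, CK1_3 was highest in 30.7%, close to the 29.9% of CK1_1 and the 30.7% of CK1_2. The main counts that rest on CK1_3 are given with and without it.

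In CK2 the members were abundant as a group. Their CK2 means ran from 100.6 to 1418 FPKM, with a median of 274 FPKM. There were 45 members between 100 and 200 FPKM, 44 between 200 and 500, 24 between 500 and 1000, and 7 at 1000 or more. The 10 most abundant held 24.6% of the summed CK2 level of the set. The 120 members together took 6.31%, 6.06% and 6.21% of all FPKM in CK2_1, CK2_2 and CK2_3. In the OE libraries they summed to 4.14, 3.14 and 5.14 FPKM, and 94, 101 and 93 of them were listed at 0 in OE1, OE30 and OE9. The level in CK2 thus did not overlap that in CK1 or OE for any member, as the rule required of the means.

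**Figure D1:**
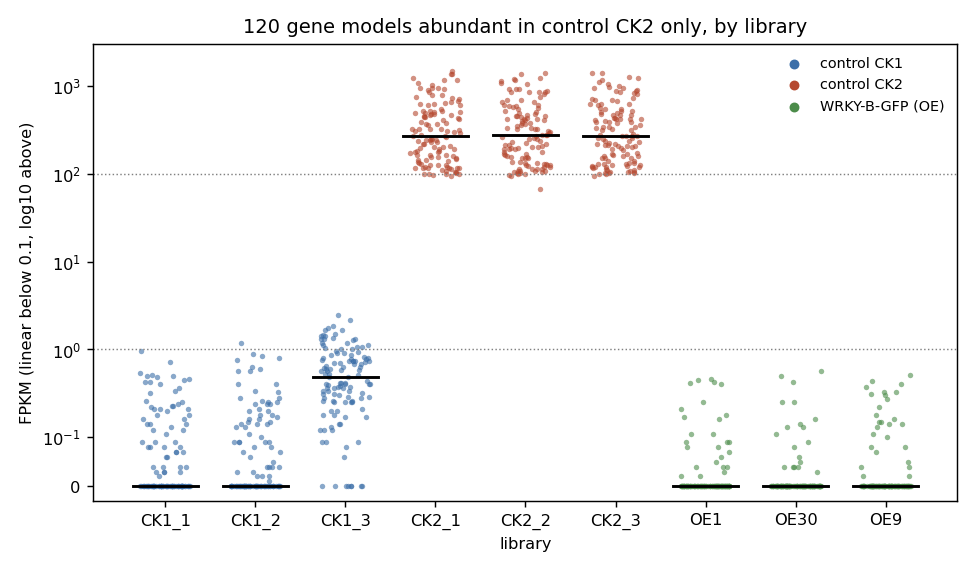
Level of each of the 120 gene models (points) in each library, in FPKM on an axis that is linear below 0.1 and log10 above; black bars are medians over members and dotted lines mark the limits of 100 and 1 FPKM. The members lie between 66.75 and 1475 FPKM in the CK2 libraries, the medians of CK1_1, CK1_2 and all OE libraries are at 0, and the median of CK1_3 is 0.49 FPKM.

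The most abundant member was Solyc06g084180.3.1, at 1474.82, 1391.38 and 1388.22 FPKM in CK2_1, CK2_2 and CK2_3, a mean of 1418 ± 49.1 FPKM (SD, n = 3). It was listed at 0 in all OE libraries and in CK1_1 and CK1_2, and it was at 0.65 FPKM in CK1_3. On build SL3.0 it spans chromosome 6, positions 49380082 to 49426793 on the minus strand. Its value in CK1_3 was the only one above 0 outside CK2.

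Solyc06g084620.1 followed at 1238.14, 1365.83 and 1390.26 FPKM in CK2 (1331 ± 81.7, SD, n = 3). It was at 0, 0.18 and 2.46 FPKM in CK1 and at 0, 0.11 and 0.22 FPKM in OE. Its value in CK1_3 was the highest of any member in any library outside CK2. Solyc12g005320.2 was at 1380.9, 1184.91 and 1252.48 FPKM in CK2, at 0, 0.04 and 1.65 FPKM in CK1, and listed at 0 in OE. Solyc10g055470.2 was at 1368.53, 1144.66 and 1221.14 FPKM in CK2, at 0.21, 0.15 and 2.17 FPKM in CK1, and at 0.02, 0 and 0.02 FPKM in OE. In both of these gene models CK1_3 was the only library outside CK2 above 1 FPKM.

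Solyc11g008860.2, the one member whose ID places it on chromosome 11, was at 1161.25, 1181.04 and 1168.13 FPKM in CK2. It was at 0.03, 0.03 and 1.87 FPKM in CK1 and at 0, 0 and 0.05 FPKM in OE. Its CK2 libraries differed by less than those of most members, with a coefficient of variation of 0.859%.

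Solyc03g031490.3 was at 1152.7, 1233 and 1107.31 FPKM in CK2, and at 0, 0.11 and 1.35 FPKM in CK1. Solyc08g006290.2 was at 1081.97, 1086.72 and 1049.26 FPKM in CK2, and at 0, 0 and 1.49 FPKM in CK1. Both were listed at 0 in every OE library, and both have another member as the next locus in ID order.

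Solyc06g073010.3 was at 1032.83, 927.69 and 953.85 FPKM in CK2, with 1.41 FPKM in CK1_3. Solyc12g014240.2 was at 941.29, 933.12 and 945.63 FPKM in CK2, with 1.08 FPKM in CK1_3. Solyc03g031480.3 was at 795.38, 1043.24 and 972.35 FPKM in CK2, with 1.28 FPKM in CK1_3. These 3 gene models, which complete the 10 most abundant, were listed at 0 in CK1_1, CK1_2 and every OE library.

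The rule's limits cut through a continuous range of levels. The lowest CK2 means inside the set were 100.6 FPKM for Solyc05g052120.3, 101.5 for Solyc02g065740.3 and 101.8 for Solyc05g049890.1. Just outside were Solyc01g010360.3 at 98.4 FPKM, Solyc02g014290.1 at 97.2 and Solyc08g006280.2 at 96.3. On the CK1 side, Solyc02g062860.3, Solyc06g071400.3 and Solyc06g084620.1 were just inside, at means of 0.993, 0.983 and 0.88 FPKM. Solyc02g089170.3, Solyc01g005510.3 and Solyc02g087670.3 were just outside, at 1.003, 1.09 and 1.11 FPKM. On the OE side the highest mean inside was 0.43 FPKM, in Solyc03g063150.3, and the next were 0.333 FPKM in Solyc06g071400.3 and 0.327 FPKM in Solyc02g062860.3. No gene model at 100 FPKM or more in CK2 and under 1 FPKM in CK1 was at 1 FPKM or more in OE.

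The last count shows how the 1284 gene models abundant in CK2 divided. There were 165 under 1 FPKM in OE, made up of the 120 members and 45 that reached 1 FPKM in CK1. The remaining 1119 were at 1 FPKM or more in both. So among gene models abundant in CK2, each one under 1 FPKM in CK1 was also under 1 FPKM in OE, and the reverse did not hold. This is a count over means that the rule itself used.

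**Figure D2:**
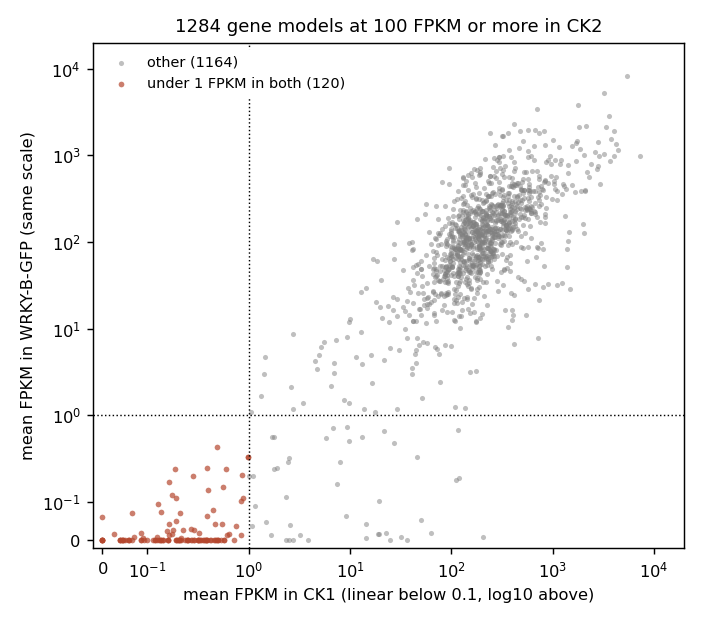
Mean FPKM in CK1 (horizontal) and in WRKY-B-GFP (vertical) of the 1284 gene models at 100 FPKM or more in CK2, on axes that are linear below 0.1 and log10 above, with dotted lines at 1 FPKM. The 120 members fill the lower left corner, 45 other gene models lie below the horizontal line to its right, and the upper left corner is empty.

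Most members met the limits in single libraries as well. Each CK2 library was at 100 FPKM or more in 111 members, each OE library was under 1 FPKM in all 120, and each CK1 library was under 1 FPKM in 95, or in 119 without CK1_3. To describe a library that took no part in the choice, the rule was applied to the other 8 libraries. Chosen without CK2_1, CK2_2 or CK2_3, the set held 119, 120 and 118 gene models, of which 114, 116 and 116 reached 100 FPKM in the library left out. Chosen without any one OE library, it held 120 each time, and all 120 were under 1 FPKM in the library left out, where the highest value was 0.57 FPKM. Chosen without CK1_1 or CK1_2, it held 116 each time, and 115 were under 1 FPKM in the library left out.

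CK1_3 gave a different result. Chosen without it, the set held 126 gene models, the 120 members and 6 more, and 96 of the 126 (76.2%) were under 1 FPKM in CK1_3. The 6 that CK1_3 kept out included the most abundant gene models of this pattern. Solyc09g091040.3 was at 2195.2, 2279.94 and 2272.53 FPKM in CK2, and at 0, 0.47 and 4.89 FPKM in CK1_1, CK1_2 and CK1_3. Solyc01g056310.3 was at 2257.93, 2253.44 and 2227.3 FPKM in CK2, and at 1, 0.99 and 5.02 FPKM in CK1. Solyc10g007270.3 was at 1953.86, 2032.92 and 1832.95 FPKM in CK2, and at 0.25, 0.25 and 2.99 FPKM in CK1. All of these were above every member in CK2, and the mean in CK1 passed 1 FPKM through CK1_3. The others were Solyc01g005510.3, Solyc02g087670.3 and Solyc02g089170.3, at CK2 means of 1858, 779 and 193 FPKM.

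Within these 126 gene models, the level in CK1_3 followed the level in CK2. CK1_3 was at a median of 0.160% of the CK2 mean, with quartiles of 0.115% and 0.212%. The median was 0.160% for the 65 gene models at 100 to 300 FPKM in CK2, 0.171% for the 50 at 300 to 1000 FPKM, and 0.160% for the 11 at 1000 FPKM or more. Summed over the 126, CK1_3 was at 0.164% of CK2, against 0.0282% in CK1_1, 0.0312% in CK1_2, 0.00984% in OE1, 0.00593% in OE30 and 0.0110% in OE9. Across the gene models above 0, the correlation of log10 levels with CK2 was 0.774 in CK1_3 (n = 118), 0.0357 in CK1_1 (n = 62) and 0.109 in CK1_2 (n = 65). These correlations are across genes that share a library, and genes are not replicates, so no p is given. The choice also held the mean of CK1_1 and CK1_2, and that of OE, under 1 FPKM, but not CK1_3. The shares and correlations are therefore not on an equal footing between these libraries. The cause of the CK1_3 values was not tested.

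**Figure D3:**
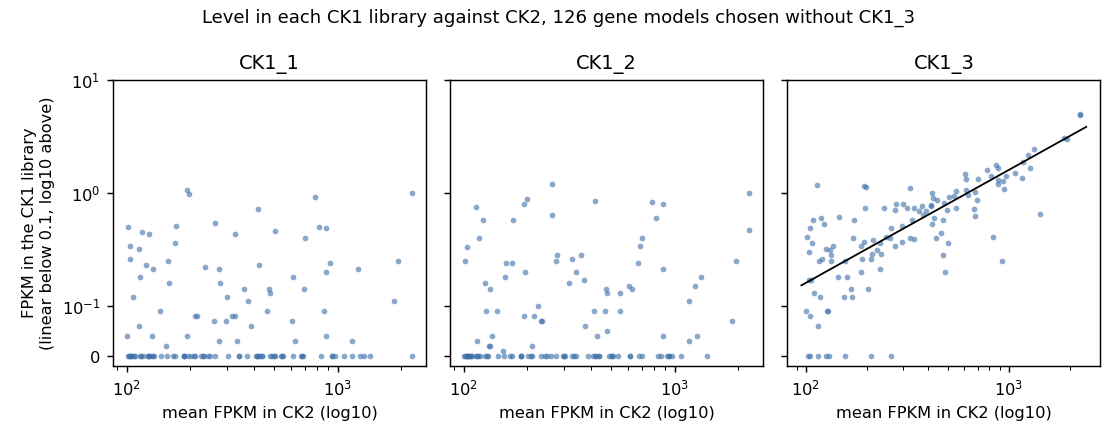
FPKM in CK1_1, CK1_2 and CK1_3 (vertical, linear below 0.1 and log10 above) against mean FPKM in CK2 (horizontal, log10) for the 126 gene models chosen without CK1_3; the line in the right panel marks 0.160% of the CK2 mean. The points follow the line in CK1_3, while in CK1_1 and CK1_2 many points lie at 0 and the others show no such slope. The choice held the mean of CK1_1 and CK1_2 under 1 FPKM, but not CK1_3.

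A few gene models departed from that proportion. Among the 19 members with a position on SL3.0, the 3 that span more than 40000 bases were all low in CK1_3 for their CK2 level. Solyc06g084180.3.1 was at 0.0458% of its CK2 mean, Solyc06g008663.1.1 (chromosome 6, 2526928 to 2584103, minus strand) at 0.0493%, and Solyc01g066410.1.1 (chromosome 1, 74057738 to 74104293, minus strand) at 0.0716%. The median span of the 19 was 3790 bases. Among members with a shorter known span, Solyc10g051120.2.1 (4684 bases) was at 0.0702% and Solyc12g088160.2.1 (5349 bases) at 0.0764%. Low values were thus not confined to the 3 longest spans. The other members have no known span, and some were as low, such as Solyc09g065450.3 at 0.0412% and Solyc02g069300.1 at 0.0592%. A link of this proportion with span was not tested. Solyc02g089570.3, at 847.12, 926.53 and 994.18 FPKM in CK2, was lower still, at 0.0271%. Of the 8 members listed at 0 in CK1_3, Solyc05g042170.1 had the highest CK2 mean, 262 FPKM. It was also the only member at 1 FPKM or more in CK1_2, with 1.2 FPKM there. Solyc10g051120.2.1, Solyc12g088160.2.1, Solyc09g065450.3, Solyc02g069300.1, Solyc02g089570.3 and Solyc05g042170.1 were singled out after their values were seen.

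There were 6 members listed at 0 in every CK1 library, and 5 of them were also at 0 in every OE library, so that they were listed above 0 in CK2 alone. Without CK1_3 these counts were 42 and 35. Of the 5 members at 0 in every CK1 and OE library, Solyc10g046990.2 was the most abundant, at 199.16, 213.2 and 218.48 FPKM in CK2. Solyc02g087970.1 was at 151.86, 152.99 and 160.9 FPKM, and Solyc12g033100.1 at 117.56, 134.44 and 138.52 FPKM. Solyc03g078260.3 and Solyc05g049890.1, at CK2 means of 126 and 102 FPKM, were the others. The exception was Solyc04g051720.2, the one member on chromosome 4 by its ID, with 0.18 FPKM in OE9. In OE, 76 members were listed at 0 in all 3 libraries. No depth is known for these libraries, so a value of 0 sets no limit on the level.

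The CK2 libraries agreed closely on the members. The coefficient of variation over the 3 CK2 libraries had a median of 4.00%, with quartiles of 2.09% and 6.72%. In the 1164 other gene models at 100 FPKM or more in CK2 the median was 4.06%, with quartiles of 2.41% and 6.42%. The coefficient passed 10% in 8 members (6.67%) and in 68 of the others (5.84%). The steadiest member was Solyc03g063150.3, at 118.02, 118.57 and 118.48 FPKM in CK2. It was also the member most evenly present elsewhere, at 0.45, 0.4 and 0.6 FPKM in CK1 and 0.46, 0.43 and 0.4 FPKM in OE, where the groups overlapped.

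The most variable member was Solyc03g078260.3, at 171.79, 66.75 and 138.58 FPKM in CK2_1, CK2_2 and CK2_3, a coefficient of variation of 42.7%. Its value in CK2_2 was the lowest of any member in CK2. The same locus has a second gene model, Solyc03g078260.3.1 (chromosome 3, 51686018 to 51689807, plus strand), which was also a member. It was at 938.05, 849.75 and 805.07 FPKM in CK2 and at 1.76 FPKM in CK1_3. Summed over both gene models the locus was at 1109.84, 916.5 and 943.65 FPKM, and the coefficient of variation fell to 10.6%. The division of reads between the gene models was set by the authors' counting.

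The order of the CK2 libraries differed between members and the other abundant gene models. CK2_1 was the highest CK2 library in 47 members (39.2%), CK2_2 in 29 (24.2%) and CK2_3 in 44 (36.7%). Of the 1164 others, 15.6% were highest in CK2_1, 59.2% in CK2_2 and 25.2% in CK2_3. These are 3 libraries of one group, and the counts are descriptions of those libraries. The members' share with CK2_2 highest was 26.7% after scaling by median ratio and 12.5% after scaling every library to the same sum, and the share in the others was 63.6% and 43.0%.

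Some loci have a second gene model in the table, which gave another view of the members. IDs carry 1 or 2 suffixes after the locus, and 19 of the 120 members (15.8%) had 2, against 17.9% of the other gene models abundant in CK2 and 23.5% of all gene models. At 17 member loci the table holds 2 gene models, and at 1 of these, Solyc03g078260, both were members. Of the 16 other gene models, 10 were under 1 FPKM in CK2 and 12 under 3 FPKM. At most of these loci the RNA was thus assigned almost wholly to the member.

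There were 4 of these 16 at 5 FPKM or more in CK2. Solyc02g067450.3.1 was at 30.14, 38.67 and 31.93 FPKM in CK2, beside 440.32, 413.02 and 424.61 FPKM for the member Solyc02g067450.3. Solyc06g084180.3 was at 20.4, 26.83 and 23.18 FPKM in CK2, beside the most abundant member of all. Solyc02g086690.3 and Solyc05g055710.3 had CK2 means of 7.86 and 7.63 FPKM. All of these were higher in CK2 than in any CK1 or OE library, as their member partners were. Solyc06g084180.3 was also present elsewhere, at 0.45, 0.37 and 0.66 FPKM in CK1 and 0.46, 1.34 and 0.4 FPKM in OE.

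At 1 locus the second gene model took another course. The member Solyc01g087070.3 was at 246.38, 272.79 and 267.2 FPKM in CK2, and at 0.54, 0.64 and 0.49 FPKM in CK1. Its partner Solyc01g087070.3.1 was at 3.26, 3.3 and 4.16 FPKM in CK1, 1.59, 2.18 and 2.8 FPKM in CK2, and 1.38, 2.98 and 3.67 FPKM in OE. The partner's CK2 values lay below its CK1 values in every library. Reads shared by gene models of a locus could be divided between them, so these pairs are uncertain.

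Many members lay beside one another. Locus numbers in the IDs follow the chromosome, since 7969 of 7975 placed gene models lay on the chromosome named in their ID and 96.9% of neighbouring pairs were in ascending position. In that order, 24 of the 119 member loci (20.2%) were next to another member, 35 (29.4%) lay within 5 loci of one, and 41 (34.5%) within 10. Of the 1144 other loci abundant in CK2, 1.05%, 4.28% and 6.56% lay that near a member, and of all 26909 other loci 0.762%, 3.59% and 6.91%. These shares are descriptions. Neighbouring genes can be near-identical copies, and whether their reads were shared could not be checked without sequence.

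**Figure D4:**
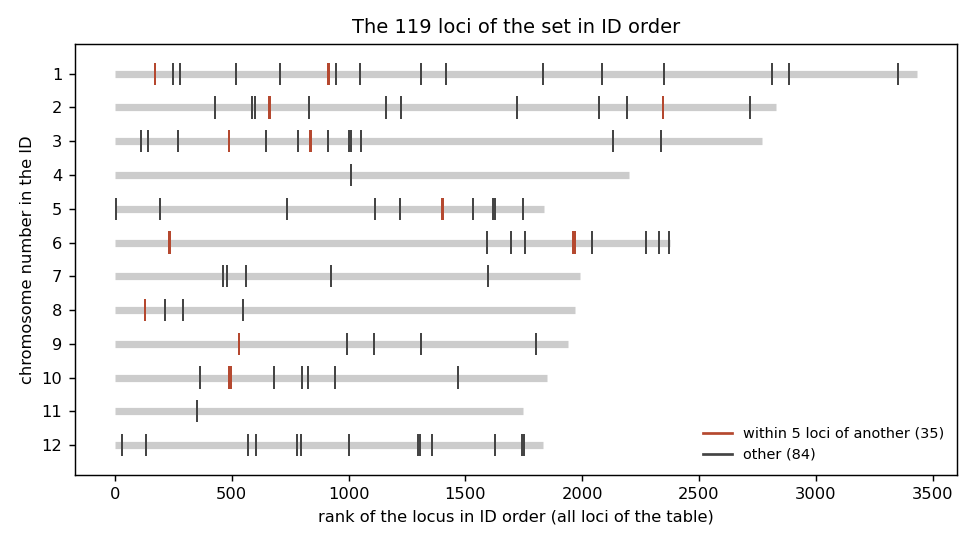
The 119 member loci (vertical ticks) along the order of all loci in the table, by the chromosome number in the ID; red ticks lie within 5 loci of another member and grey bars show how many loci each chromosome has. The 35 red ticks fall on 8 chromosomes, and chromosomes 4 and 11 each carry 1 member.

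The 35 loci formed 12 clusters, of which 6 held 2 member loci, 3 held 3, 2 held 4 and 1 held 6. The largest was an unbroken run of 6 loci on chromosome 6. Solyc06g008630.3 was at 454.93, 441.91 and 413.89 FPKM in CK2, Solyc06g008640.2 at 100.46, 128.22 and 122.02, and Solyc06g008650.3 at 279.44, 307.58 and 315.69. All were listed at 0 in OE. Solyc06g008660.3 was at 428.39, 421.66 and 416.82 FPKM, Solyc06g008663.1.1 at 782.61, 866.91 and 847.38, and Solyc06g008680.3 at 518.97, 568.97 and 563.63. The loci on either side of the run did not share the pattern. The locus before it, Solyc06g008620.1, was at 21.39, 20.83 and 20.61 FPKM in CK1 and 16.22, 16.17 and 15.68 FPKM in CK2. The locus after it, Solyc06g008690.1, was at 3.09, 1.17 and 3.01 FPKM in CK2 and 3.67, 4.33 and 4.82 FPKM in CK1.

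Both clusters of 4 held other loci as well. In the first, on chromosome 1, Solyc01g066360.3 was at 325.09, 328.88 and 342.02 FPKM in CK2 and Solyc01g066380.3 at 241.09, 245.84 and 238.61. Solyc01g066410.1.1 was at 506.54, 489.99 and 511.12 FPKM and Solyc01g066420.2 at 393.19, 382.9 and 389.41. The locus between these pairs, Solyc01g066390.3, had 35.77 FPKM in CK2_1 and was listed at 0 in the other CK2 libraries. CK2_1 alone was high there.

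In the second, also on chromosome 6, Solyc06g075260.3 was at 270.59, 276.07 and 272.3 FPKM in CK2 and Solyc06g075270.3.1 at 364.96, 375.25 and 386.18. Solyc06g075290.3 was at 303.99, 319.11 and 325.56 FPKM and Solyc06g075320.3 at 476.36, 480.29 and 470.25. A locus inside this cluster showed the same order of groups at a lower level. Solyc06g075280.3 was at 30.36, 33.45 and 30.37 FPKM in CK2 and at 0.66, 0.48 and 0.7 FPKM in CK1. The other loci between them were not abundant in CK2. Solyc06g075300.2 was at 0.26 to 0.52 FPKM and Solyc06g075310.3 at 0.86 to 1.03 FPKM. The second gene model of the latter locus, Solyc06g075310.3.1, was at 2.03 to 2.73 FPKM.

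The clusters of 3 lay on chromosomes 2, 3 and 10. On chromosome 2, Solyc02g089570.3, Solyc02g089580.3 and Solyc02g089590.3 were consecutive, the latter pair at 319.26, 328.48 and 330.18 FPKM and at 516.48, 455.52 and 518 FPKM in CK2. On chromosome 3, Solyc03g031480.3 and Solyc03g031490.3 were followed by Solyc03g031500.1.1, at 95.47, 118.3 and 108.45 FPKM in CK2. The following loci were also abundant in CK2 but were present in CK1. Solyc03g031510.3 was at 762.72, 871.12 and 810.3 FPKM in CK2 and at 24.15, 25.21 and 25.5 FPKM in CK1. Solyc03g031520.3 was at 1282.12, 1435.06 and 1271.94 FPKM in CK2 and at 11.9, 16.31 and 14.61 FPKM in CK1. So the run crossed the rule's limit in CK1, and these neighbours belonged to the 45 gene models that were under 1 FPKM in OE alone.

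On chromosome 10 the cluster was looser, with 6 other loci between its members. Solyc10g017520.3 was at 115.34, 112.91 and 115.37 FPKM in CK2, Solyc10g017550.3 at 117.16, 114.59 and 109.79, and Solyc10g017620.3 at 423.89, 411.06 and 422.85. Solyc10g017530.3, next to the first of them, was at 39.96, 39.48 and 39.65 FPKM in CK1 and 27.25, 30.38 and 31.3 FPKM in CK2. Members and gene models present in both controls thus stood side by side.

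**Figure D5:**
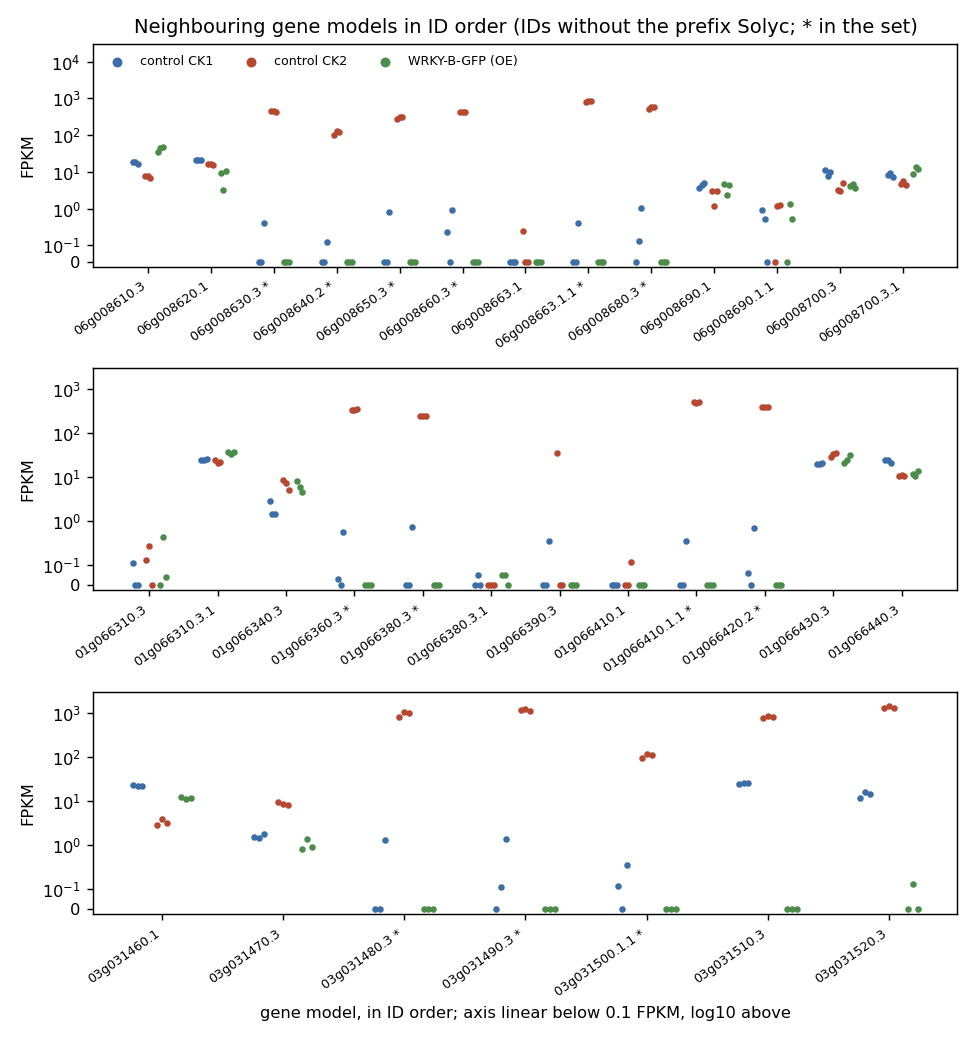
FPKM in each library (points; linear below 0.1, log10 above) of the gene models in 3 clusters and the loci on either side, in ID order, with members starred: the run of 6 on chromosome 6, the cluster of 4 on chromosome 1 and the cluster of 3 on chromosome 3. Members stand above 90 FPKM in CK2 and at or near 0 elsewhere, and the last 2 gene models of the bottom panel reach 11.9 FPKM or more in CK1.

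The 6 pairs gave the same picture at smaller scale. Solyc09g011790.3 and Solyc09g011800.3 were at 467.97, 453.88 and 472.77 FPKM and at 609.16, 608.16 and 627.72 FPKM in CK2. Solyc08g006290.2 was followed by Solyc08g006300.3, at 98.49, 107.04 and 112.94 FPKM in CK2. The locus before them, Solyc08g006280.2, was one of the nearest misses, at 89.44, 99.36 and 100.17 FPKM, so that 3 consecutive loci shared the pattern. Solyc05g052110.3 was at 244.24, 248.81 and 253.72 FPKM in CK2, beside Solyc05g052120.3, the member with the lowest CK2 mean.

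The remaining pairs had other loci between them. Solyc02g067450.3 was joined by Solyc02g067510.3, at 218.28, 237.24 and 247.54 FPKM in CK2. Between them Solyc02g067460.3 was at 360.91, 369.24 and 343.91 FPKM in CK1 and 298.38, 307.55 and 317.88 FPKM in CK2, abundant in both controls. Solyc03g058450.3 was at 197.71, 195.04 and 188.75 FPKM in CK2 and Solyc03g058890.3 at 299.24, 263.65 and 270.83. Solyc01g006735.1 was at 118.3, 105.98 and 99.74 FPKM in CK2 and Solyc01g006750.2 at 165.13, 166.83 and 167.22. A locus after this last pair, Solyc01g006760.3, was at 29.93, 32.04 and 34.49 FPKM in CK2 and at 0.06, 0 and 0 FPKM in CK1.

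The 966 non-member loci at 1 to 5 loci from a member had a median CK2 mean of 5.49 FPKM, and the 25049 at more than 10 loci had 5.23 FPKM. A locus at 10 FPKM or more in CK2 and under 1 FPKM in CK1 and OE was found in 1.97% of the former and 1.34% of the latter. Directly next to a member it was found in 7 of 205 loci (3.41%), the highest share at any distance up to 10 loci. Chromosome 6 had the most members for its size, 17, or 7.16 per 1000 loci, followed by chromosome 12 with 13, or 7.10. Chromosomes 4 and 11 had 1 each, or 0.454 and 0.572 per 1000 loci. The other loci abundant in CK2 ran from 34.3 to 55.6 per 1000 loci over chromosomes 1 to 12, and chromosome 6 was highest there too. Members were 11.4% of the loci abundant in CK2 on chromosome 6, and 11.8% on chromosome 2. The shares were 14.0% on chromosome 3, 13.8% on chromosome 12 and 13.4% on chromosome 5. On chromosomes 4 and 11 they were 1.14% and 1.64%.

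OE against CK1 was fitted across all gene models with limma on log2(FPKM + 0.1). By the labels, OE and CK1 differ in cultivar, tissue and transgene at once, and these cannot be told apart. The filter kept gene models that reached 0.5 FPKM in 3 or more of the 6 libraries. The rule had used both groups' means, so the members' values are given as a description of what remained under 1 FPKM, with no p. Of 24448 gene models tested, 21.8% were called lower in OE and 17.5% higher, at a fold change of 2 and an adjusted p under 0.05, thresholds that measure only the spread between these libraries. The balance of these calls turned over, to 4041 higher and 3442 lower without CK1_3, and likewise without CK1_1 or CK1_2 and with no fold threshold. Only 5 members passed the filter, and 4 of them met the thresholds, all lower in OE. These 4 passed it only through CK1, at 0.5 FPKM or more in every CK1 library and in no OE library, so that their direction was fixed beforehand and is no result about the set.

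Solyc02g062860.3 was at 0.97, 0.88 and 1.13 FPKM in CK1 and at 0.43, 0.25 and 0.3 FPKM in OE, with no overlap. The log2 fold change was -1.37 ± 0.27 (SE, limma). Solyc01g097050.3.1 (chromosome 1, 87895254 to 87901919, minus strand) was at 0.51, 0.57 and 0.57 FPKM in CK1 and at 0, 0 and 0.13 FPKM in OE. The log2 fold change was -2.30 ± 0.41 (SE, limma). It was -0.573 on log2(FPKM + 1) and -4.54 on log2(FPKM + 0.01), so its size rests on the pseudocount. In both of these gene models CK1_3 lay close to the other CK1 libraries, unlike in most members.

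Solyc06g076090.3 was at 0.72, 0.84 and 1 FPKM in CK1 and at 0.25, 0.04 and 0.33 FPKM in OE, a log2 fold change of -1.78 ± 0.47 (SE, limma). Solyc02g093570.2 was at 0.5, 0.6 and 1.41 FPKM in CK1 and at 0, 0 and 0.31 FPKM in OE, a log2 fold change of -2.42 ± 0.68 (SE, limma). Solyc06g071400.3 was at 0.49, 0.79 and 1.67 FPKM in CK1 and at 0.4, 0.5 and 0.1 FPKM in OE, where the groups overlapped, and it was not called (log2 fold change -1.32 ± 0.58, SE, limma). For Solyc02g093570.2 the log2 fold change was -0.714 on log2(FPKM + 1) and -4.58 on log2(FPKM + 0.01). No member was called on log2(FPKM + 1). Without CK1_2 or CK1_3 no member passed the filter. Without CK1_1, 1 member, Solyc06g071400.3, passed it and was not called.

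Over the whole set, the mean in CK1 was above that in OE in 111 members, below it in 4 and equal in 5. Without CK1_3 it was above in 70, below in 15 and equal in 35. The rule capped both means, and this count was not made over other gene models. The same order was seen in sums over gene models of lower CK2 level, chosen under the same limit of 1 FPKM. In 406 gene models of the same pattern at 10 to 100 FPKM in CK2, chosen without CK1_3, CK1_1 and CK1_2 summed to 0.533% of CK2 each. OE1, OE30 and OE9 summed to 0.203%, 0.183% and 0.242% there. The 4 members with the higher mean in OE were Solyc02g089570.3, Solyc02g069300.1, Solyc01g056360.3 and Solyc04g051720.2, named after their values were seen. In each of these the OE mean rested on 1 or 2 libraries above 0. Solyc02g069300.1, for example, was at 0, 0.57 and 0.14 FPKM in OE and at 0.14, 0.14 and 0.28 FPKM in CK1. These levels were all below 1 FPKM, and the groups overlapped.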

How the data were processed

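The authors deposited a single table, with an FPKM for every gene model in each library to 2 decimals. The submitters' processing notes name DESeq2 1.4.5, RSEM 1.2.12, HISAT2 2.0.4 and Bowtie2 2.2.5, with no roles. The positions were on SL3.0, while the study's methods name SL4.0. A further 27 columns hold the authors' own fold changes, p-values and q-values and were not used. Read totals are not known. In low values the commonest ratio between libraries was 1 (log2 ratio 0) in each.

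The members and lists were chosen with earlier results of these data known. Group means were taken over 3 libraries. Gene models named were the 10 highest and 3 lowest members in CK2, the 3 highest in CK1 and in OE, the 3 nearest misses per limit, members at loci with a second gene model or near another member, members called, the extremes of the coefficient of variation, and WRKY-B. The planned lists of pathway and cell type genes could not be filled, as no ID had a name.

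OE was compared with CK1 by limma 3.58.1 (R 4.3.3), with trend, a pseudocount of 0.1, a filter of 0.5 FPKM in 3 libraries, and Benjamini-Hochberg adjustment over all gene models tested. On simulated data for this comparison, with 200 of 23285 gene models changed by a log2 change of 2, 88% were recovered and 6 unchanged gene models were called. The changes were put only into gene models with a mean log2(FPKM + 0.1) above 2. Every member lay below that in CK1 and OE, so the recovery does not describe the members. Far fewer gene models were changed than the 9595 of 24448 called in the data. Other steps used Python 3.11.15, numpy 2.4.6 and pandas 2.3.3. Alternatives covered the limits, scaling, pseudocount, filter, fit and each library left out.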

Additional observations from a re-analysis of the deposited data

How the results depend on the processing

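The number of members, 120, was 86 with the rule applied to each library, 123 with medians, 132 after median-ratio scaling, 134 after scaling to 1000000 and 119 for summed loci. It was 181 at an upper limit of 50 FPKM and 75 at 200, 103 at a lower limit of 0.5 and 132 at 2, and 116 to 126 with 1 library left out. The members' share of CK2 FPKM, 6.19%, was 3.49% with the rule applied to each library and 5.63% to 7.42% with 1 library left out, highest without CK1_3. The members' summed level in OE, 0.00882% of CK2, became a median of 0 over members. Without CK1_3, an alternative chosen after seeing the data, members with a higher mean in CK1 than in OE went from 111 to 70. Gene models called between OE and CK1, 9595, were 15307 with no fold threshold. The members called, 4, were 0 with log2(FPKM + 1), 16 of 115 with no filter, 27 of 120 in a fit of all 9 libraries, and 0 to 4 with 1 library left out. Over all gene models, 10506 of 32639 were called with no filter and 10247 of 26296 in the fit of all 9 libraries. In that fit every member passed the filter through its CK2 values, which the rule had used. Without CK1_1, 1 member passed the filter and was not called, and without CK1_2 or CK1_3 no member passed it. Calls higher minus calls lower in OE, -1051, reversed to 99 with no fold threshold and ran from -1997 to 599 with 1 library left out. It was 589, 587 and 599 without CK1_1, CK1_2 or CK1_3, where no gene model could pass the filter through CK1 alone. Of the other results, only the members' log2 fold changes were checked for a reversal, and none reversed. No paired analysis was possible because OE and CK1, the only groups tested against each other, share 1 replicate number. The unknown depth limits every value near 0.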

Other observations

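The same pattern was also present at lower levels in CK2. Of 8860 gene models with a CK2 mean of 10 to 100 FPKM, 401 (4.53%) were under 1 FPKM in both CK1 and OE, and of 11437 at 1 to 10 FPKM, 1129 (9.87%) were. At 100 FPKM or more the share was 9.35%. Among the 8860, 247 were under 1 FPKM in OE but not in CK1 and 24 in CK1 but not in OE, so the second kind, absent at 100 FPKM or more, appeared at lower levels. The limit of 1 FPKM is a smaller fold below a CK2 mean of 1 to 10 FPKM, so these shares are not on an equal footing.

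The excess in CK1_3 was also measured below 100 FPKM. In 406 gene models at 10 to 100 FPKM in CK2, chosen without CK1_3, the summed level was 0.533% of CK2 in CK1_1, 0.533% in CK1_2 and 0.696% in CK1_3. CK1_3 lay above the mean of the other CK1 libraries by 0.163 percentage points of CK2 there. The excess was 0.116 at 100 to 300 FPKM, 0.130 at 300 to 1000 FPKM and 0.151 at 1000 FPKM or more. In the 1137 gene models at 1 to 10 FPKM it was larger, 0.885 points, beside a mean of 9.29% in the other CK1 libraries. The choice held the mean of CK1_1 and CK1_2 under 1 FPKM but not CK1_3, so these libraries are not on an equal footing. The cause was not tested.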
